A study of Mus musculus with 4 samples.

Results

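Glycolysis turns glucose into pyruvate, and lactate dehydrogenase reduces the pyruvate to lactate when cells run the pathway without respiration. Hexokinase traps glucose inside the cell, phosphofructokinase makes the committed step, and pyruvate kinase makes the last ATP of the pathway. Mouse embryonic stem cells are known for high glycolytic flux. The 10 genes described here encode enzymes of this pathway: Hk1 and Hk2 (hexokinases), Gpi1 (glucose-6-phosphate isomerase), Pfkl and Pfkp (the liver-type and platelet-type phosphofructokinases), Aldoa (aldolase A), Gapdh (glyceraldehyde-3-phosphate dehydrogenase), Eno1 (enolase 1), Pkm (the muscle-type pyruvate kinase) and Ldha (lactate dehydrogenase A). They were chosen by name, with earlier results of these data known, so counts set beside those of all genes are descriptive only. They are 10 of 21883 protein-coding genes of the RefSeq table for GRCm38.p6, and all 10 symbols matched that table. Peaks were assigned to a gene when the summit lay inside it or within 20 kb of either end, which gave 81 of the 57614 peaks of repeat 1 and 69 of the 51610 peaks of repeat 2.

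ChIP-seq was used to map the binding of Tfcp2l1, a CP2-type DNA-binding protein that LIF signalling induces and that helps to keep stem cells naive. The cells were wild-type mouse embryonic stem cells kept in 2i medium: 3 µM CHIR99021 (a GSK3 inhibitor) and 1 µM PD0325901 (a MEK inhibitor), to which LIF was added at 1000 units/mL. Each of 2 repeats had 1 ChIP library, made with a custom antibody against mouse Tfcp2l1, and 1 input library, and there was no other condition to compare with. Whether the repeats came from separate cultures is not stated in the labels, and differences between them may be technical only. Filtered ChIP tags numbered 19353473 in repeat 1 and 22555373 in repeat 2. Peak lists cannot check the identity of the cells by expression, and RNA was not analysed here. Values below are given as repeat 1 and then repeat 2. Fold enrichment is the authors' own value for each peak, which sets the ChIP tags around a summit against a local background level. Normalised tags are the ChIP tags of a peak per 1000000 filtered ChIP tags of its library, with exact Poisson 95% intervals that cover counting error only. A region is called shared when peaks of both repeats overlap by at least 1 bp and both summits lie in the window, and its values are those of the overlapping pair with the highest mean. Positions are in GRCm38.

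Stretches of DNA at gene starts show where the factor's peaks met the genes' own promoters. In RefSeq (GRCm38.p6) the 10 genes have 17 listed starts, and 9 of the stretches from 250 bases before to 30 bases after a start lay at least partly under peaks of both repeats. These belonged to 5 genes, Hk1, Pfkl, Aldoa, Eno1 and Pkm. Some stretches of the same gene overlap each other, at Eno1 and at Aldoa, so the 9 are not separate sites. How many stretches of all genes lay under peaks of both repeats was not counted, so the 9 have no background share beside them. At Eno1 and Pkm both summits fell inside such a stretch. The stretches at Eno1 (chr4:150236947-150237226, plus strand, start at 150237197) and Pkm (chr9:59656977-59657256, plus strand, start at 59657227) are shown for that reason, with the bases from the summit of 1 repeat to that of the other in capitals.
Eno1: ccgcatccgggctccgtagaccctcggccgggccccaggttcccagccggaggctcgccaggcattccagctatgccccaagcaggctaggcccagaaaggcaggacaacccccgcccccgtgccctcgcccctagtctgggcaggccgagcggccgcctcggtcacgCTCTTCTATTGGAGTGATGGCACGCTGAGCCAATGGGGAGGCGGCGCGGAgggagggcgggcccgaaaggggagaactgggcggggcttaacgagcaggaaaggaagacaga
Pkm: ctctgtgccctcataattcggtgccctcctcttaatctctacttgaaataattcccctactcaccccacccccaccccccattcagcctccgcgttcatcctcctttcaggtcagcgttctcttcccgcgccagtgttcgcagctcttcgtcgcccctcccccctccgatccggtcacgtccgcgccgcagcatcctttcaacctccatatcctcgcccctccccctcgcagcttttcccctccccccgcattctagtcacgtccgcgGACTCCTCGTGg

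Known Tfcp2l1 sites hold a short core that is repeated about a helical turn away. The strict letters searched, on both strands, were CCAG, then 6 bases of any kind, then CCAG again. The looser letters were CCNG, 6 bases of any kind and CCNG, where N is any base, so that every strict match is also a loose one. Neither stretch above held a match to either. At Pkm the summits, at 59657245 and 59657255, lay close to the end of the stretch at 59657256. Bases past that end were not searched for these or looser letters. Whether the Pkm site holds a match there was not tested. Of the 17 stretches, 5 held the looser letters, at 1 start each of Pfkl, Pfkp, Aldoa, Gapdh and Pkm, and 1 held the strict letters, at Aldoa. Among all 32851 such stretches in the table, 27.7% held the looser and 3.20% the strict letters. Among the 1716 stretches with both summits of a shared pair inside, these shares were 51.7% and 7.05%. The loosest letters searched, CNNG, 6 bases of any kind and CNNG, were in 14 of the 17 stretches. They were in 67.8% of all stretches and in 89.2% of those with both summits inside. The Eno1 stretch above held 5 such matches and the Pkm stretch held none. The stretches at Aldoa (chr7:126800418-126800697, minus strand, start at 126800447) and Pfkl (chr10:78009778-78010057, minus strand, start at 78009807) are shown with each match to the looser letters in capitals. At Aldoa, the match from 2 bases before to 11 bases after the start is the strict one, and at Pfkl 2 matches overlap. Peaks of both repeats reached these stretches, but no summit of either repeat lay inside them.
Aldoa: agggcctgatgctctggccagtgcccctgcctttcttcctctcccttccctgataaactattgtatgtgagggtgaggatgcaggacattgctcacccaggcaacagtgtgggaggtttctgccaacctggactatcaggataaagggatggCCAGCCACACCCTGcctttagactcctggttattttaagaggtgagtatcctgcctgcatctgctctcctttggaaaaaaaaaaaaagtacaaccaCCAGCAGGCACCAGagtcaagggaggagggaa
Pfkl: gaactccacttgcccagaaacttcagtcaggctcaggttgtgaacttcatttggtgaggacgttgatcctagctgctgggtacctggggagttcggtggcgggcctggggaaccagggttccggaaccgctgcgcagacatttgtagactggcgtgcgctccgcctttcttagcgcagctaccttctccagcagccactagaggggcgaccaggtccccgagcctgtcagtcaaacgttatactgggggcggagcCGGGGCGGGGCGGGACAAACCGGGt

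All 10 genes had at least 1 shared region in their window, where 71.5% of all protein-coding genes had one. All 10 also had a peak of repeat 1 (77.4% of all genes) and a peak of repeat 2 (74.5% of all genes). There were 57 shared regions in all, 33 inside the genes, 13 upstream and 11 downstream. The members had a median of 6.5 regions, or 0.768 per 10 kb of window, and all protein-coding genes had a median of 2 regions, or 0.229 per 10 kb. Hk1 had the most, with 10, followed by Hk2 with 9 and by Pfkp, Gapdh and Pkm with 7 each. Ldha had 1 region and Pfkl 2. Of the 57 regions, 12 were closer to another protein-coding gene than to the glycolysis gene, 6 of them at Gapdh, whose own body held 1 region. Gene windows differ in length, from 44.6 kb at Gapdh to 151 kb at Hk1.

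**Figure D1:**
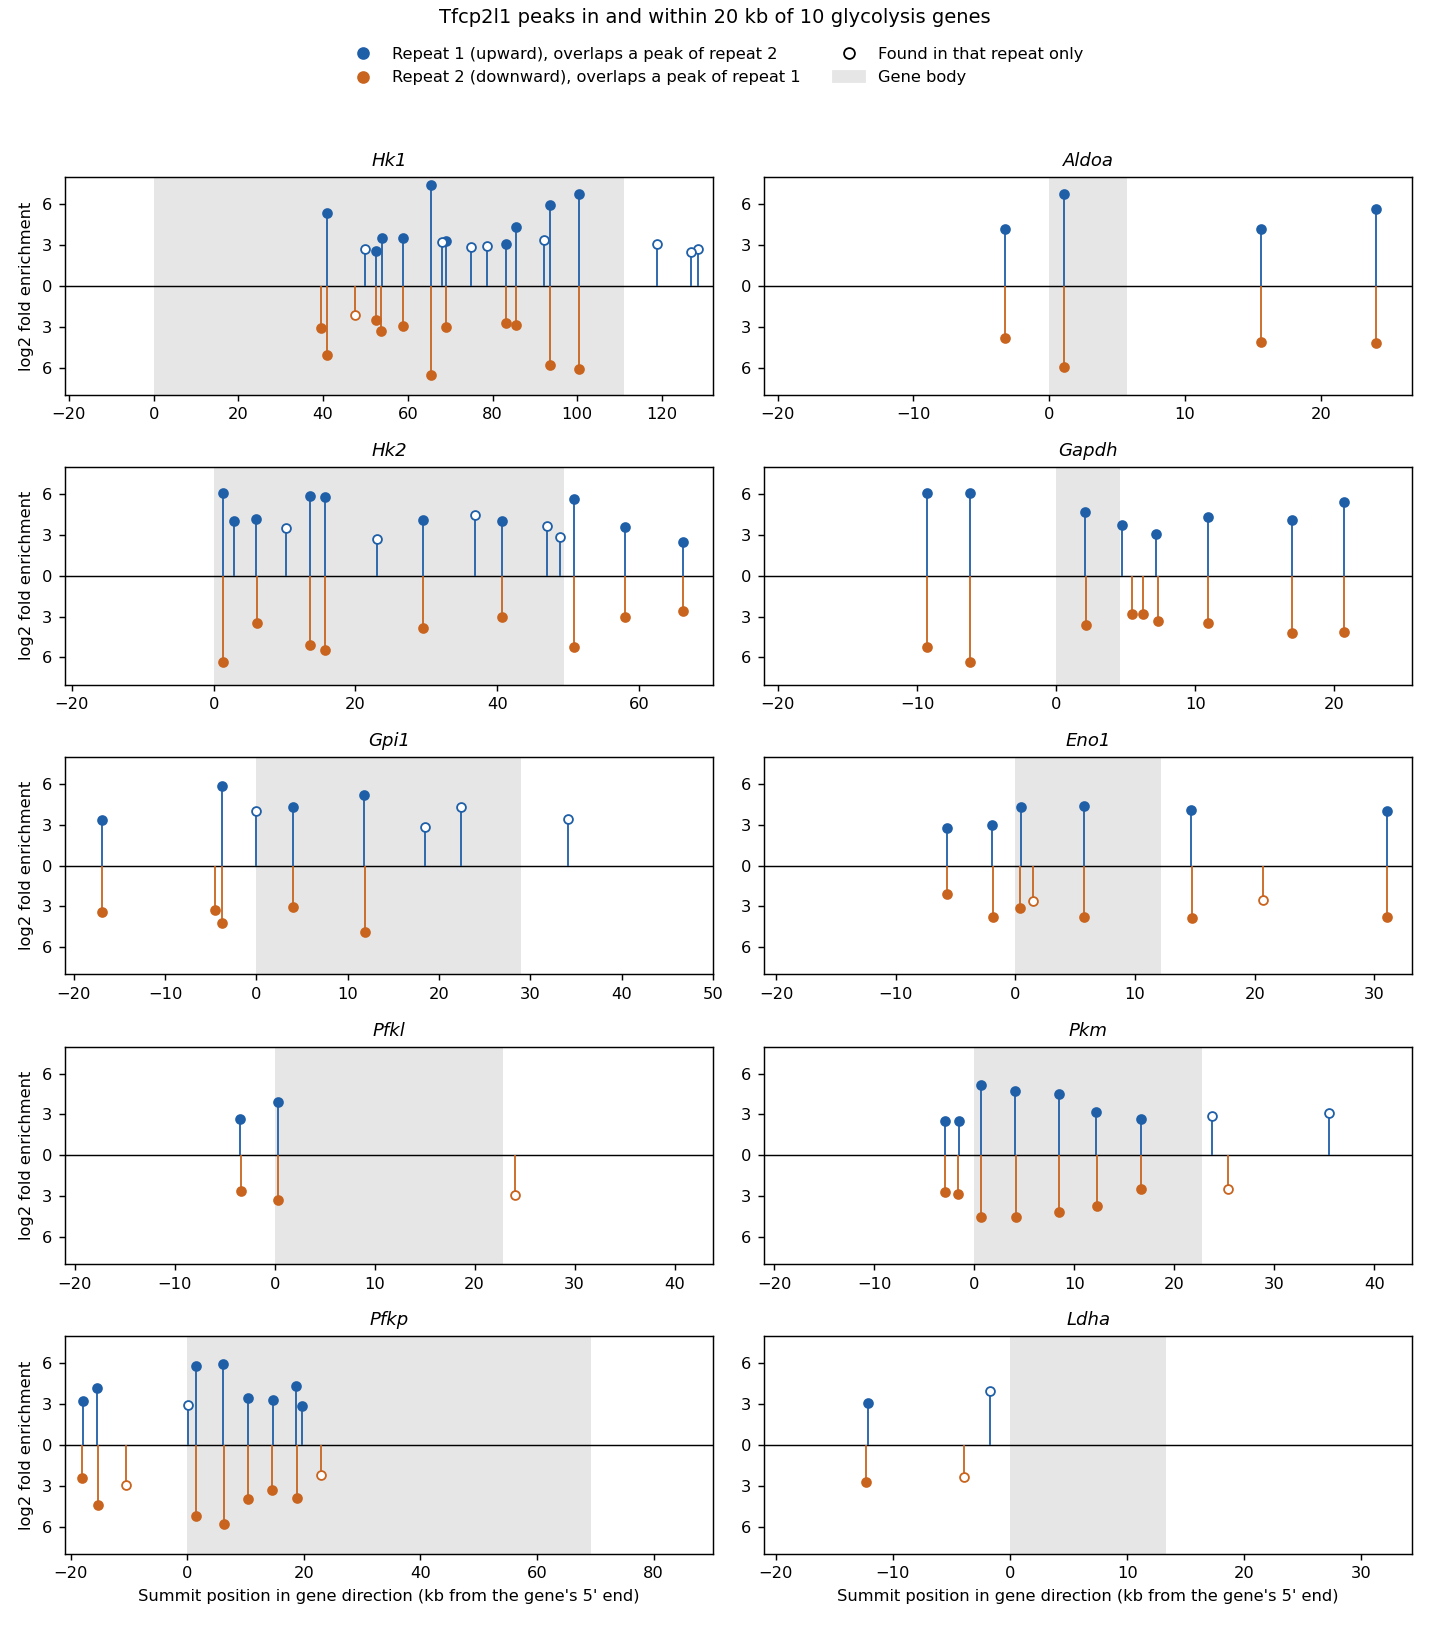
Summits of all peaks in the windows of the 10 genes, in gene direction from the 5′ end (kb), against log2 fold enrichment, with repeat 1 drawn upward and repeat 2 downward. Filled points overlap a peak of the other repeat, open points do not, and grey marks the gene body. Hk1 and Hk2 carry 10 and 9 shared regions, and Ldha carries 1.

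**Figure D2:**
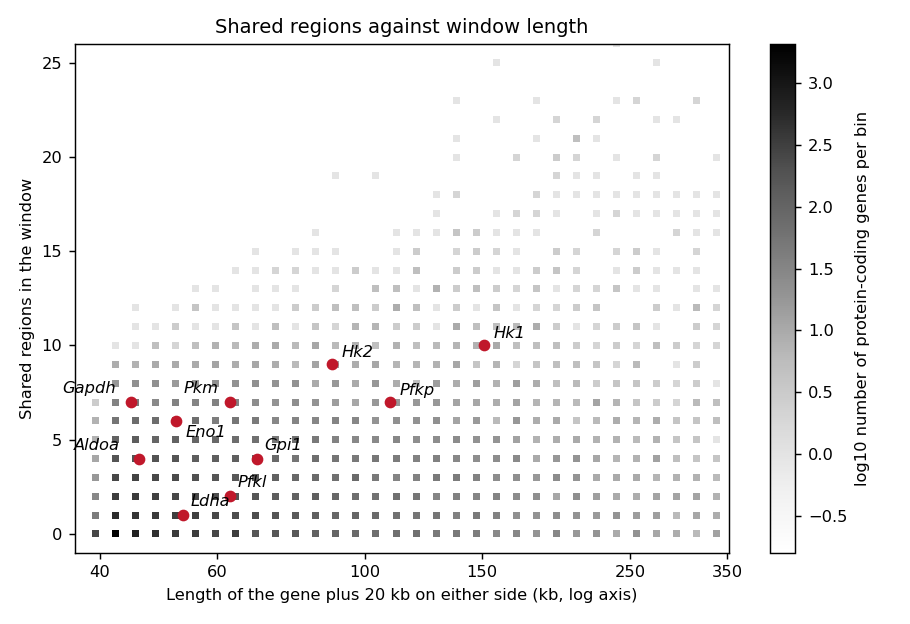
Shared regions per gene against window length (kb, log axis) for the 10 genes (red) and for all protein-coding genes in bins (grey, darker with more genes; genes with more than 26 regions or the longest windows lie outside the axes). Gapdh, Eno1 and Pkm have 7, 6 and 7 regions in windows of 44.6, 52.2 and 62.8 kb.

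Enrichment at the strongest shared region of each gene ran from the top of the lists to below their medians. The medians of all peaks were 12.1-fold and 10.2-fold, and the strongest 10% of peaks began at 43.4-fold and 32.2-fold. Hk1, Hk2, Pfkp, Aldoa and Gapdh had a region in the strongest 10% of both lists, or 5 of 10 genes, where 20.2% of all protein-coding genes had one. Gapdh is counted here by window alone, since its regions of that strength lay inside the neighbouring gene Ncapd2. Regions of at least 10-fold in both lists were present at 8 of the 10 genes, against 58.6% of all. Pfkl and Ldha were those without. Over genes with a shared region, the median of the strongest value was 49.3-fold and 42.8-fold for the 10 genes and 31.4-fold and 22.0-fold for all protein-coding genes.

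Hexokinase 1 is the broadly expressed form of the enzyme, and its gene held the strongest site of the 10. Hk1 spans 62268855 to 62379920 on chromosome 10, on the minus strand. On chromosome 10 at 62313599 to 62316038, inside Hk1 and 65.5 kb from its 5′ end, a region reached 172-fold and 93.9-fold. This was rank 14 of repeat 1 and rank 168 of repeat 2. The region had 666 and 577 ChIP tags, or 34.4 normalised tags (31.8 to 37.1) and 25.6 (23.5 to 27.8). Further into the gene lay a region of 108-fold and 70.2-fold (62278676 to 62280232) and a region of 61.1-fold and 55.4-fold (62285791 to 62287024). All 3 were in the strongest 10% of both lists.

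Both starts of Hk1 in the RefSeq table lie far apart, and they differed in the peaks around them. No peak of either repeat had its summit in the first 39.6 kb of the gene, counted from the 5′ end at 62379920. The first shared region from that side, at 62335669 to 62341081, covered the internal start at 62340421 and one end of the long noncoding RNA gene Hk1os. Its summits lay 1448 bp and 1480 bp inside that start, at 41.9-fold and 34.5-fold. In repeat 1 it was called as a single peak of 5413 bp, longer than 99.99% of the list, while repeat 2 split it into 2 peaks, the weaker with its summit 105 bp inside the start. The other 6 regions of Hk1 were weak to moderate, with enrichment of 5.90 to 20.1 in repeat 1 and 5.56 to 9.81 in repeat 2.

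Hexokinase 2, the inducible form linked to high glycolytic flux, had its strongest region close to its only listed start. Hk2 spans 82725025 to 82774454 on chromosome 6, minus strand. The summits lay 1305 bp and 1302 bp inside Hk2 on chromosome 6 (82770045 to 82773923), at 68.7-fold and 81.6-fold. Repeat 1 divided this stretch into 2 peaks, the stronger with 271 tags over 1410 bp, and repeat 2 called 1 peak with 526 tags over 3760 bp, so tag counts there are not comparable. A pair of neighbouring regions deeper in the gene had 59.0-fold and 33.8-fold (82759520 to 82761498) and 54.2-fold and 44.3-fold (82758085 to 82759329). Just past the 3′ end, 1.42 kb outside the gene, lay a region of 49.8-fold and 38.4-fold, with 9.77 normalised tags (8.42 to 11.3) and 9.75 (8.51 to 11.1). These 4 regions were in the strongest 10% of both lists. The other 5 had enrichment of 5.68 to 17.9 in repeat 1 and 6.15 to 14.5 in repeat 2. All 9 regions of Hk2 had Hk2 as their nearest protein-coding gene.

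Gpi1, whose product converts glucose 6-phosphate to fructose 6-phosphate, had 4 regions. Their enrichment was 10.4 to 57.6 in repeat 1 and 8.21 to 30.2 in repeat 2. The gene spans 34201327 to 34230336 on chromosome 7, minus strand. Inside the gene, 11.8 kb from its 5′ end, a region on chromosome 7 (34217951 to 34219088) had 35.8-fold and 30.2-fold, with 5.89 normalised tags (4.86 to 7.08) and 5.50 (4.57 to 6.55). A region 3.75 kb upstream (34233524 to 34235379), within the noncoding gene Gm12762 and nearer to Garre1, had 57.6-fold and 18.7-fold. There repeat 1 had 10.6 normalised tags (9.24 to 12.2) and repeat 2 had 4.12 (3.33 to 5.05), although repeat 2 divided the stretch into 2 peaks. The remaining regions lay 4000 bp inside Gpi1 (19.9-fold and 8.21-fold) and 16.9 kb upstream inside Garre1 (10.4-fold and 10.7-fold). At the start of Gpi1 a peak of 16.3-fold, with 65 tags and its summit 40 bp upstream, was called in repeat 1 only.

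Phosphofructokinase is encoded by 3 genes, and the 2 described here differed in strength. Pfkp spans 6579874 to 6649060 on chromosome 13 and Pfkl spans 77986947 to 78009807 on chromosome 10, both on the minus strand. Pfkp carried 7 regions, the strongest on chromosome 13 at 6642121 to 6644069, 6.23 kb inside the gene, at 62.9-fold and 55.4-fold. Next to it, at 6646941 to 6648085, a region of 55.3-fold and 36.5-fold had both summits 1.27 kb inside the listed start. Inside Pfkp no summit of either repeat lay beyond 23.0 kb from the 5′ end of this 69.2 kb gene. The strongest region, but not the next, lay within the noncoding gene Gm35730 inside Pfkp. The other 5 regions of Pfkp had enrichment of 9.66 to 19.8 in repeat 1 and 5.29 to 21.2 in repeat 2, and a peak over its listed start was called in repeat 1 only, at 7.73-fold with 23 tags. Pfkl had its strongest region on chromosome 10 at 78008514 to 78010264, across its start, with the summits 341 bp and 340 bp inside the gene. Its enrichment was 14.8-fold and 9.81-fold, with 91 and 83 tags, close to the medians of the lists. The other region of Pfkl, 3.50 kb upstream, had 6.28-fold in both repeats.

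Aldolase A splits fructose 1,6-bisphosphate into smaller sugar phosphates. Aldoa is a short gene of 5.76 kb on the minus strand (126795234 to 126800994), and a single region on chromosome 7 (126797555 to 126800846) covered most of it. It reached 107-fold and 63.2-fold and had the most ChIP tags in repeat 1 of any peak at the 10 genes, with 697 and 570, or 36.0 normalised tags (33.4 to 38.8) and 25.3 (23.2 to 27.4). The peaks were long, at 3292 bp and 2779 bp, where list medians were 929 bp and 945 bp. Both summits lay between the first 2 of its 3 listed starts, 568 bp and 539 bp inside the outermost one, whose stretch with the strict letters is printed above. Of the other 3 regions in the window, the one 3.27 kb upstream (17.9-fold and 14.5-fold) was nearest to Aldoa. The others were nearest to Tbx6 and to Ypel3, the latter at 49.8-fold and 18.4-fold.

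Gapdh, the gene of the enzyme that oxidises glyceraldehyde 3-phosphate, lies between Iffo1 and Ncapd2 (125161852 to 125166467, minus strand), and most regions in its window lay in those genes. The strongest, on chromosome 6 at 125171996 to 125173391, was inside Ncapd2, a condensin subunit gene, and 6.19 kb upstream of Gapdh. It had 67.4-fold and 82.8-fold, with 15.5 normalised tags (13.8 to 17.4) and 15.6 (13.98 to 17.3). Another region in Ncapd2, 9.26 kb upstream of Gapdh, had 67.6-fold and 38.5-fold. Within Gapdh itself the single region (125163755 to 125164929) had 25.4-fold and 12.2-fold, with its summits 1388 bp and 1424 bp past the listed start. The 4 regions past the 3′ end, all inside Iffo1, had enrichment of 13.0 to 42.5 in repeat 1 and 7.14 to 18.05 in repeat 2. By nearest gene, then, Gapdh had no region in the strongest 10% of both lists.

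Enolase 1 catalyses the last step before pyruvate kinase, and its gene carried 6 regions over a 52.2 kb window, none in the strongest 10% of either list. Eno1 spans 150236708 to 150248879 on the plus strand. The strongest was on chromosome 4 at 150241488 to 150242978, 5.75 kb inside Eno1, at 20.4-fold and 13.7-fold. The region at the start shown above had its summits 33 bp and 82 bp before the start at 150237197. Its enrichment was 19.4-fold and 8.63-fold, and its normalised tags were 4.65 (3.74 to 5.72) and 1.20 (0.789 to 1.74). The intervals of the 2 repeats do not overlap, but the peak was called shorter in repeat 2, 545 bp against 1173 bp, so tag counts there are not comparable. Repeat 2 also called a separate peak next to it (150237659 to 150238420), with 31 tags, that overlapped no peak of repeat 1. The other 4 regions spanned 6.68 to 16.9 in repeat 1 and 4.29 to 14.3 in repeat 2 on the scale of fold enrichment.

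Pyruvate kinase M makes pyruvate and ATP, and its gene carried a region at its start and 4 further regions inside. Pkm spans 59656576 to 59679372 on the plus strand. At the start on chromosome 9 (59656138 to 59657865) Pkm had 35.6-fold and 23.6-fold, with 10.9 normalised tags (9.43 to 12.4) and 5.41 (4.49 to 6.46). The summits lay 18 bp and 28 bp past the listed start at 59657227, the second of 2 listed for Pkm. Into the gene followed regions of 26.6-fold and 22.8-fold, 22.5-fold and 17.9-fold, 9.18-fold and 12.95-fold, and 6.50-fold and 5.49-fold. Their distances from the 5′ end were 4.12 kb, 8.47 kb, 12.2 kb and 16.7 kb. Fold enrichment fell in this order in both lists, but among the first 3 regions the mean of both repeats fell from one to the next by less than the 1.65-fold that the spread between repeats allows. By tags the order differed, since the second region had 135 tags in repeat 2 and the start region 122. A pair of weak regions upstream, inside the noncoding gene Gm51708, had 5.80-fold in repeat 1 and 6.67-fold and 7.06-fold in repeat 2.

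Ldha, whose enzyme makes lactate from pyruvate, had 1 shared region, the last of the 10 genes in order of enrichment, although its difference from Pfkl was within the spread between repeats. It spans 46842274 to 46855627 on the plus strand. Its single shared region was on chromosome 7 at 46829493 to 46830629, 12.1 kb upstream of Ldha, and was nearer to Gtf2h1. It had 8.49-fold and 6.67-fold, below the medians of both lists, with 38 and 53 tags, or 1.96 normalised tags (1.39 to 2.70) and 2.35 (1.76 to 3.07). Summits of the pair were 212 bp apart, while the median over all one-to-one pairs was 28 bp. Each repeat had 1 further peak upstream of Ldha that did not overlap the other's, at 15.9-fold with 50 tags in repeat 1 and at 5.10-fold with 21 tags in repeat 2. No summit of either repeat lay inside the gene, and no peak overlapped the stretches of its 2 listed starts. In 1 of these, CACGTG, the E-box letters read by Myc and other factors, occurred 2 times. These letters were in 6.79% of all stretches of that length.

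The order of the genes by the mean log2 fold enrichment of their strongest shared region was Hk1, Aldoa, Hk2, Gapdh, Pfkp, Gpi1, Pkm, Eno1, Pfkl and Ldha. The region that places Gapdh lay inside Ncapd2. Over all 41701 one-to-one pairs of peaks, the log2 ratio of repeat 1 to repeat 2 had a median of 0.39 and an SD of 0.52. With that SD, 2 genes' means over both repeats would need to differ by 0.72 on the log2 scale, or 1.65-fold, to exceed 95% of the spread between repeats. The SD pools pairs of all strengths and leaves out regions split into several peaks, such as the strongest of Hk2. A bound for strong regions alone was not computed and may differ. Of the 9 pairs of neighbours in the order, 2 did. Pfkp was above Gpi1 by 0.84 and Pkm was above Eno1 by 0.79. The other 7 pairs of neighbours differed by less than that bound. Aldoa, Hk2 and Gapdh also changed places between the repeats, with Aldoa first of the 3 in repeat 1 and last in repeat 2. Among all protein-coding genes, with those lacking a region counted as lower, 99.6% had a lower strongest region than Hk1, 50.4% a lower one than Eno1 and 30.8% a lower one than Ldha.

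**Figure D3:**
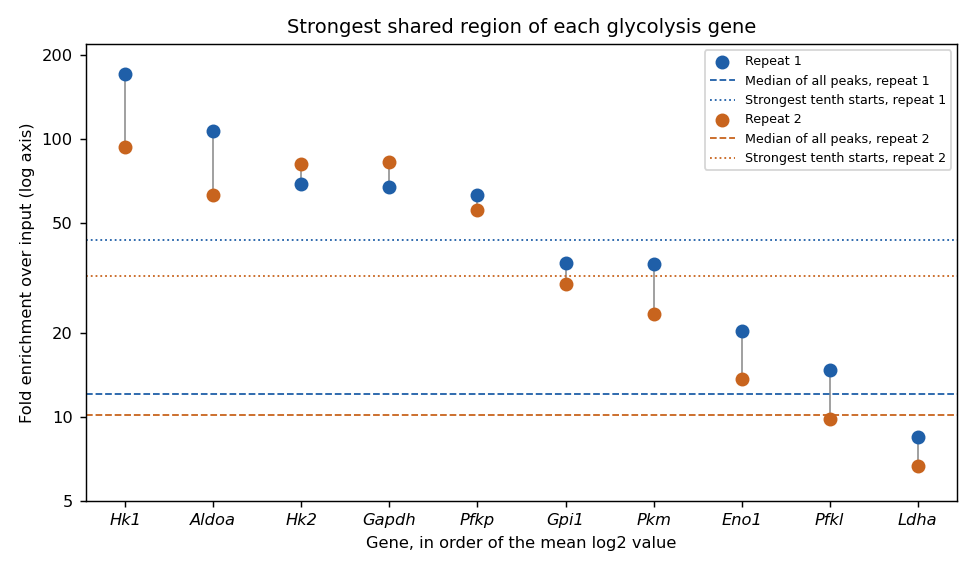
Fold enrichment (log axis) at the strongest shared region of each gene, 1 point per repeat, in order of the mean log2 value, with the medians of both lists (dashed) and the start of their strongest 10% (dotted). Points of Hk1, Aldoa, Hk2, Gapdh and Pfkp lie above both dotted lines, and those of Ldha lie below both medians. The region shown for Gapdh lies inside Ncapd2.

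Overlap between the repeats at these genes was close to that of the lists as a whole. Of the 81 peaks of repeat 1, 60 (74.1%) overlapped a peak of repeat 2, where 76.1% of the whole list did. Of the 69 peaks of repeat 2, 61 (88.4%) overlapped a peak of repeat 1, where 84.8% of the whole list did. Enrichment was higher in repeat 1 at 44 of the 57 regions and lower at 12, and 78.2% of all pairs were higher in repeat 1. The median log2 ratio was 0.34. It lay outside the central 95% of all pairs (-0.61 to 1.46) at 2 regions, the one upstream of Gpi1 nearest to Garre1 (1.63) and the one 1.92 kb upstream of Eno1 (-0.82). Summits of the pairs were a median of 27 bp apart.

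**Figure D4:**
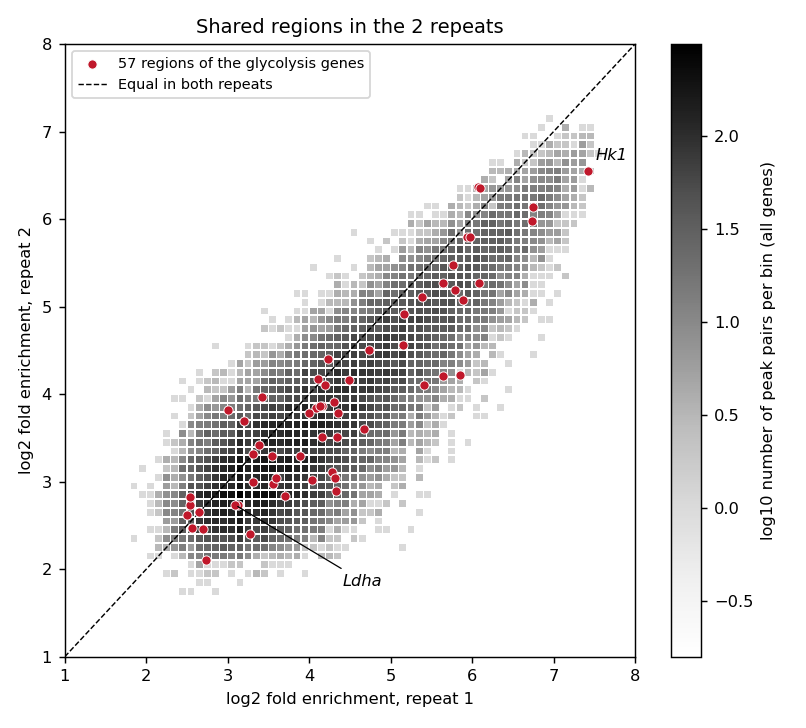
Log2 fold enrichment in repeat 1 against repeat 2 for the 57 shared regions of the glycolysis genes (red) over all one-to-one pairs in bins (grey, darker with more pairs). The region of Ldha lies among the weak pairs and the strongest region of Hk1 at the upper end, and 44 of the 57 points lie on the side of repeat 1.

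Peaks found in a single repeat had fewer tags at the median than shared ones, although some in repeat 1 lay above the list median of 12.1-fold. There were 21 in repeat 1, with 19 to 73 tags and enrichment of 5.80 to 21.8, and 8 in repeat 2, with 21 to 43 tags and enrichment of 4.29 to 7.85. Their median tags were 34 and 27, against 74.5 and 63 for shared peaks at the same genes. Hk1 held 8 of the 21 and Hk2 held 5, the strongest being a peak of 21.8-fold inside Hk2. Gpi1 held 4, among them the peak at its start.

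Binding within 1 kb of a listed start was present at 4 of the 10 genes, Pfkl, Aldoa, Eno1 and Pkm, where 26.6% of the 17491 protein-coding genes with a listed start had it. Within 2 kb the count was 8, adding Hk1, Hk2, Pfkp and Gapdh, against 32.0%. At these 4 the summits lay 1272 bp to 1480 bp from the start, on the side of the gene. Within 0.5 kb the count was 3, against 19.5%. The start regions of these 3, Pfkl, Eno1 and Pkm, had 14.8-fold to 35.6-fold in repeat 1.

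Other genes of the pathway were counted in the same window. Over all protein-coding genes, the shares are 71.5% with a shared region and 20.2% with one in the strongest 10% of both lists. Regions of these genes, and of the respiratory chain genes below, were counted by window alone, so some may lie nearer to a neighbouring gene. Of 17 genes for other isozymes and steps, 11 (64.7%) had a shared region and 2 (11.8%) had one in the strongest 10%. With so few genes, these shares are not read as a difference from all genes. The highest were Pfkm, the muscle phosphofructokinase (93.9-fold and 57.3-fold), Eno3, the muscle enolase (61.3-fold and 56.5-fold), Pgam2, the muscle phosphoglycerate mutase (39.6-fold and 20.4-fold), and Ldhb (32.9-fold and 22.0-fold). Ldhc and Pgk2, the testis forms of lactate dehydrogenase and phosphoglycerate kinase, had no peak of either repeat. Tpi1, Pgk1 and Pgam1 encode the ubiquitous enzymes of 3 steps that the 10 genes leave out, and they were chosen after their values were seen. Tpi1 had 20.8-fold and 13.7-fold, Pgk1 on chromosome X had 5.80-fold and 5.49-fold, and Pgam1 had no shared region.

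Among 13 genes for carriers and regulators, 12 (92.3%) had a shared region and 7 (53.8%) had one in the strongest 10%. Slc2a1, which encodes the glucose transporter Glut1, had 154-fold and 88.6-fold. Slc2a3, which encodes Glut3, had 75.2-fold and 63.97-fold, with 12 regions in a window of 115 kb that were not split by nearest gene. Pfkfb4 and Pfkfb3, whose enzymes set the level of the activator fructose 2,6-bisphosphate, had 90.3-fold and 46.7-fold, and 107-fold and 39.2-fold. Pfkfb1, on chromosome X, had no peak. All 6 gluconeogenesis genes had a shared region and none had one in the strongest 10% of both lists. Pck2, the mitochondrial phosphoenolpyruvate carboxykinase, was the highest, at 60.2-fold and 28.7-fold. Fbp1 and Fbp2, neighbouring fructose bisphosphatase genes, shared a region of 34.3-fold and 23.9-fold, and Pcx, the pyruvate carboxylase gene, had 21.7-fold and 23.1-fold.

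Respiratory chain genes, which serve the other main route to ATP, were counted in the same way. The list was drawn up by gene symbol and does not hold every subunit. Of 86, 71 (82.6%) had a shared region, against 71.5% of all protein-coding genes. A region in the strongest 10% of both lists was present at 19 (22.1%), close to the 20.2% of all. The median was 2 regions in both cases, or 0.431 per 10 kb against 0.229 for all protein-coding genes. The strongest were near Ndufb4 (160-fold and 89.1-fold), Cox8b (118-fold and 91.0-fold), Cox7a1 (107-fold and 109-fold) and Atp5b (110-fold and 74.6-fold). Genes without any peak in the window included Atp5g3, Cox6a2 and Ndufa4. The differences between the lists were not tested, since the lists were chosen with results of these data known.

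**Figure D5:**
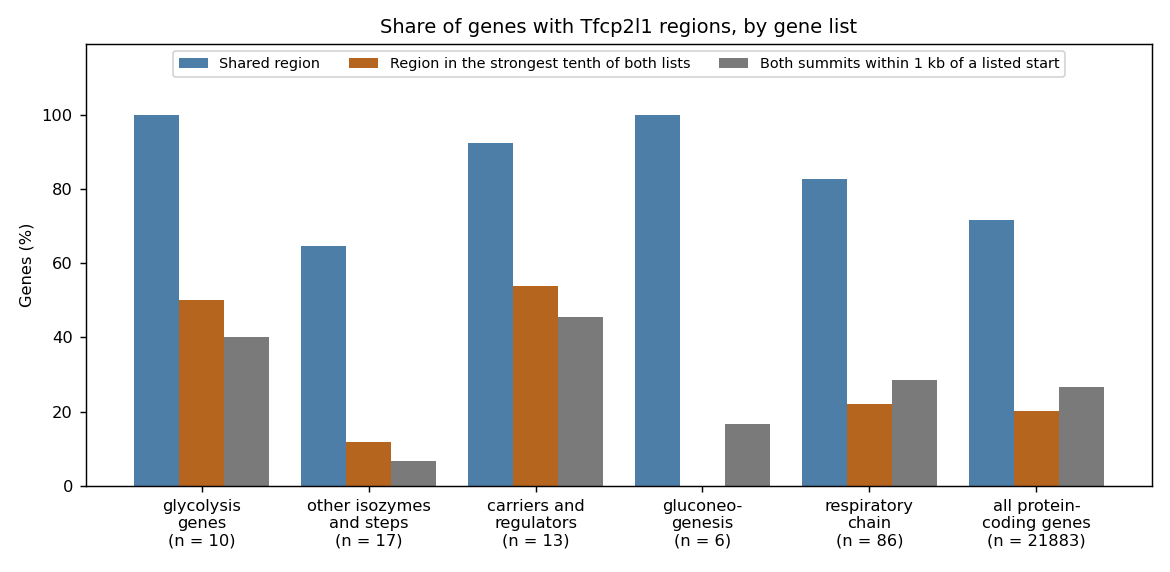
Percentage of genes in each list with a shared region in the window, with a region in the strongest 10% of both lists, and with both summits within 1 kb of a listed start (among genes with a listed start). For the 10 glycolysis genes the bars stand at 100%, 50.0% and 40%, and for all protein-coding genes at 71.5%, 20.2% and 26.6%. The 50.0% counts Gapdh through regions inside Ncapd2.

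The window's limit of 20 kb left some sites out. Just inside it lay a region of Eno1 18.9 kb away (16.02-fold and 13.8-fold), nearest to Rere, and the region of Aldoa nearest to Ypel3. Just outside lay a shared region 22.2 kb from Hk2 (44.2-fold and 34.6-fold), for which Hk2 is the nearest protein-coding gene. Tags of 35 bp in exons can be shared with processed copies of Gapdh, Eno1, Aldoa, Pkm and Ldha elsewhere in the genome. Exons were not told apart here, and the part of such copies in these counts was not tested.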

How the data were processed

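The deposited files are 2 peak lists, 1 per repeat, called separately and not pooled. Per the file headers, the authors used MACS 1.4.1 on the ChIP library against the input of the same repeat, with a p-value threshold of 1e-05, tags of 35 bp, a fragment length of 200 bp and at most 2 duplicate tags per position. CASAVA 1.8.2 and mm9 stand in the submitters' processing notes, and which aligner was used is not given there. The lists hold chromosome Y peaks up to 90.8 Mb, which GRCm38 reaches and mm9 does not, so genes and starts came from RefSeq tables of GRCm38.p6.

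Tag counts are whole ChIP tags per peak as the authors deposited them. The deposited score is 10 times the −log10 p-value, per the file headers. Fold enrichment is a linear ratio over the local background, computed by the authors' caller, and the deposited FDR is a percent. FDR was at most 0.12%.

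The members, gene lists and settings were chosen with earlier results of these data known. Strand comes from the promoter table, which lists starts for all 10 genes. Named genes are the 10 members, the 4 genes of each list that ranked highest on average in both peak lists, and up to 3 per list without a peak. Tpi1, Pgk1 and Pgam1 were added outside that rule after their values were seen. No test was run, since the design has 1 condition. Assignment of peaks was tested on simulated data. Python 3.11.15, pandas 2.3.3 and scipy 1.17.1 were used. Alternatives were other windows, overlaps, thresholds, rankings, start distances and each repeat alone.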

Additional observations from a re-analysis of the deposited data

How the results depend on the processing

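The count of 10 genes with a shared region became 8 to 10 under the other settings. Ldha lost its region with a 10 kb window, with the gene body alone, with summits within 100 bp and by nearest gene (9 of 10 each), and Pfkl and Ldha lost theirs with at least 10-fold enrichment in both lists (8 of 10). The background moved too, from 71.5% of all genes to 64.5%, 44.1%, 69.5%, 61.3% and 58.6% in that order. Each repeat alone gave 10 of 10. The 57 shared regions became 33 with the gene body alone and 34 with at least 10-fold enrichment in both lists, since fewer peaks can then count, and 41 to 80 under the remaining settings. With a single repeat there were 69 peaks without replicate 1 and 81 without replicate 2. Ranking by tags or by score kept the strongest region of 8 of the 10 genes. It moved Gpi1 to the region 3.75 kb upstream and Eno1 to the one 18.9 kb downstream. Within 2 kb of a start the count of 4 genes rose to 8, and within 0.5 kb it was 3. With a single repeat it was 5 without replicate 1 and 6 without replicate 2. The background moved here too, from 26.6% of genes with a listed start to 32.0%, 19.5%, 29.0% and 35.7% in that order.

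No paired analysis was possible because no groups of libraries are compared and each input was used up in calling the peaks of its own repeat. Depth limits the weak regions: at 18 to 30 tags, as at Pkm and Pfkl, an interval spans more than a doubling from its lower to its upper bound, and whether a site was missed in 1 repeat cannot be told from a peak list.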
